A study of Homo sapiens with 12 samples.

Results

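The HOX genes and the MEIS and PBX genes that encode their DNA-binding partners were followed across 4 groups of MiaPaCa-2 cells, an established human pancreatic carcinoma line. The genes were taken by name from the gene count table: every row whose symbol was a numbered HOXA, HOXB, HOXC or HOXD gene, MEIS1 to MEIS3 or a numbered PBX gene, which gave 46 of 70116 rows, of which 39 were HOX, 3 MEIS and 4 PBX genes. The set was chosen by its name and by the measured rise of MEIS3 after ACO1 knockdown. The fold change of MEIS3 there, and the whole comparison of siACO1 with siControl, is therefore given below as a description with no p-value. Genes past the threshold in that comparison are counted for completeness, and nothing is read from those counts. The 4 groups, of 3 libraries each, were cells transfected with a control siRNA (siControl) or with siRNA against SLC25A1 (siSLC25A1), the mitochondrial citrate carrier, against ACLY (siACLY), the cytosolic enzyme that splits citrate to acetyl-CoA, or against ACO1 (siACO1), the cytosolic aconitase that also acts as an iron-regulatory protein. All 12 libraries came from polyA RNA of this single cell line. The labels give neither the number of siRNA sequences per target nor the time after transfection, and do not say whether the replicates were separate cultures, so a p-value measures only the spread between these libraries.

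HOX proteins are homeodomain transcription factors that set position along the body axis, and their genes lie in 4 clusters in which gene order follows the order of expression along that axis. On their own they bind short, similar DNA sites. PBX proteins and MEIS proteins, both of the TALE class of homeodomain factors, bind beside them and sharpen that choice, and MEIS proteins also bind PBX directly and help to keep it in the nucleus. HOX genes of the B cluster are known to be expressed in several epithelial cancers, and MEIS proteins also act in pancreas development.

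Library totals ran from 24159424 to 43792811 counts. Each siRNA lowered its target, to 8.78% of control for SLC25A1, 7.25% for ACLY and 3.75% for ACO1. Replicate 3 of siACO1 stood apart from its 2 partners: counts over genes differed with a chi-square of 10.7 and 11.3 per degree of freedom, against 2.24 to 5.37 in the other pairs of replicates. Acinar and endocrine pancreas markers were at 0 counts in every library (4 of 4 genes in each list), as was CFTR of the ductal list, while the ductal factor SOX9 ran from 248 to 276 CPM. EPCAM and CDH1 were at or below 0.0776 CPM, while KRT8 ran from 1260 to 2440 CPM. VIM stood at 3500 to 3650 CPM in siControl, 3820 to 3890 in siSLC25A1, 4270 to 4810 in siACLY and 3470 to 3840 in siACO1. The summed level of the 5 epithelial genes was 3610 to 3740 CPM in siControl, 3130 to 3450 in siSLC25A1, 3820 to 3920 in siACLY and 2070 to 2180 in siACO1, and the part of VIM and of these genes in the results below was not tested. All markers of fibroblasts (5 genes), endothelium (3 genes) and leukocytes (4 genes) stayed under 1 CPM.

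MiaPaCa-2 cells carried a HOX profile dominated by the B cluster. Of the 46 genes, 33 had at least 1 count in some library and 13 had 0 counts in all 12: HOXA6, HOXA9, HOXC9 to HOXC13, HOXD1, HOXD4, HOXD8, HOXD9, HOXD11 and MEIS1. All 10 HOXB genes had counts, against 9 of 11 HOXA, 4 of 9 HOXC and 4 of 9 HOXD genes. After the filter on low counts 22 genes could be tested, among them HOXA2, HOXA3, HOXA11 and HOXA13, HOXB2 to HOXB9 and HOXB13, HOXC4, HOXC6 and HOXC8, MEIS2 and MEIS3, and PBX3 and PBX4. None of the HOXD genes passed. The 24 that did not pass never exceeded 7 counts in a library. HOXC4, with a mean of 8.58 counts, lay just inside the filter and HOXD12, with 2.83, just outside.

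Levels are given as CPM, which are counts relative to the library total scaled by TMM factors, and between genes as CPM per kilobase of exon. In siControl, HOXB8 and HOXB9 stood highest, at 46.6 ± 2.62 and 41.1 ± 1.41 CPM per kb (SD, n = 3), and their ranges over libraries did not overlap (43.6 to 48.3 and 40 to 42.7). HOXB2 followed at 17.8 and HOXB6 at 12.8 CPM per kb. HOXB5 at 8.97 and HOXB7 at 8.8 could not be ordered, since their ranges of 8.77 to 9.23 and 8.54 to 9.02 overlapped. Outside the B cluster the highest were HOXC8 at 5.26 and PBX3 at 3.85 CPM per kb, followed by PBX4 at 2.46, HOXA3 at 1.94 and HOXA11 at 1.76. MEIS2 stood at 0.759, HOXC6 at 0.622, MEIS3 at 0.243 and HOXA13 at 0.231 CPM per kb. With the longest transcript as the length, PBX3 stood at 6.01, above HOXC8 at 5.26, MEIS2 at 1.7, above HOXB4 at 1.26, and MEIS3 at 0.567, so these places in the order depend on the length used. HOXA3 and HOXA11 could not be ordered, with ranges of 1.79 to 2.1 and 1.52 to 1.97. Thus 14 of the 46 genes reached 1 CPM per kb in siControl. HOXB genes made up 93 to 93.3% of the summed HOX level in the siControl libraries and 93.9 to 94.8% over the knockdown libraries, so no knockdown turned the profile toward another cluster. The summed HOXB level was 139 to 147 CPM per kb in siControl, 162 to 166 in siSLC25A1, 166 to 170 in siACLY and 166 to 175 in siACO1: each knockdown group lay above the controls with no overlap. The sum follows its most abundant genes and does not stand for every gene of the cluster. From siControl to siACLY, HOXB8 went from 46.6 to 58.8 CPM per kb and HOXB9 from 41.1 to 52.1, while HOXB5 went from 8.97 to 6.52.

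**Figure D1:**
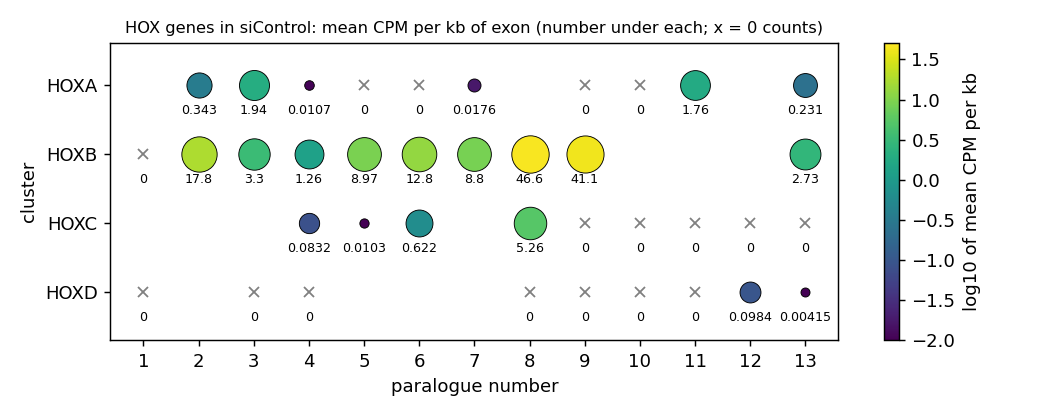
Mean level of HOX genes in the 3 siControl libraries, by cluster (rows) and paralogue number (columns). Circle size and colour give log10 of the mean CPM per kb of exon, the number under each is that mean, and a cross marks 0 counts; the B row is filled from HOXB2 to HOXB9, with HOXB8 at 46.6.

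PBX2, usually a broadly expressed PBX gene, had 0 or 1 count in every library. Its neighbours were as low: of 54 protein-coding genes within 500000 bp on either side of it, 52 (96.3%) had under 10 counts in every library, against 7409 of 19855 (37.3%) over all protein-coding genes. The surrounding region is the major histocompatibility complex on chromosome 6, and DDX39B, a common helicase gene there, was at 0 in every library. Why the region is near 0 in this table was not tested, so no statement on PBX2 expression is drawn from it.

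The promoters of MEIS3 and PBX3 are shown because MEIS3 had the widest range between groups and PBX3 was the most abundant of the tested MEIS and PBX genes. Each run is the 250 bases before the RefSeq start (GRCh38.p14), 5′ to 3′ on the gene's strand, with matches to the MEIS core TGACAG or to the composite PBX-HOX core TGATNNAT, on either strand, in capitals. The MEIS3 window is chr19:47422234-47422483 (minus strand). It lies upstream of the gene in GENCODE 29 but does not adjoin it, since the gene starts there at 47419523 on this strand. The PBX3 window is chr9:125747933-125748182 (plus strand), within the longest GENCODE 29 extent of the gene and over 1 base of its exons.
MEIS3: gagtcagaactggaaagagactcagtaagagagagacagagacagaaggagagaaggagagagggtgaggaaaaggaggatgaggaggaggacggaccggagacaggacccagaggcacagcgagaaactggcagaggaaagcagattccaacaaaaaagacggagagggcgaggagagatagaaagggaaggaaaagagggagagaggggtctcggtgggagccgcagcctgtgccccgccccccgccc
PBX3: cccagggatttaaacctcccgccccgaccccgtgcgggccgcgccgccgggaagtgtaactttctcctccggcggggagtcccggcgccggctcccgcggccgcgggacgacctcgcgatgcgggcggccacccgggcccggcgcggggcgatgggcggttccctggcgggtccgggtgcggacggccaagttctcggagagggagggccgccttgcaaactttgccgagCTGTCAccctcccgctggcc
The MEIS3 window held neither motif. The PBX3 window held 1 MEIS core on the opposite strand, which begins 20 bases before the start. RefSeq promoters were matched for 26 of the 46 genes. HOXB1 was the only HOXB gene among them, so none of the tested HOXB genes was searched. The MEIS core was present in 3 of the 26 promoters (HOXA2, HOXA4 and PBX3), against 13.1% of 27305 promoters of the same length. The PBX-HOX core was present in 3 (HOXA2, HOXB1 and HOXD11), against 6.69%. A match is only a match of letters, and neither a match nor its absence says whether a factor binds.

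MEIS3 had the widest range of the tested genes and separated all 4 groups. It stood at 1.4, 1.05 and 1.29 CPM in siControl, at 1.6, 2.33 and 1.87 in siSLC25A1, at 3.46, 4.54 and 3.82 in siACLY and at 6.2, 7.15 and 6.42 in siACO1. No 2 groups overlapped, and the order was siControl, siSLC25A1, siACLY, siACO1. MEIS3 rose 3.13-fold in siACLY (log2 fold change 1.65, SE 0.18, adjusted p = 2.39e-08, edgeR quasi-likelihood test with Benjamini-Hochberg adjustment over 16197 genes, as for every adjusted p below). It also rose in siSLC25A1, by a log2 fold change of 0.63 (SE 0.20, adjusted p = 0.0283), on counts of 46, 58 and 45 against 50, 38 and 36 in siControl. Library totals were 29206149, 25248856 and 24336768 counts in siSLC25A1 and 36464298, 36466251 and 28641881 in siControl. The siSLC25A1 call was lost without siControl replicate 2 (0.51) or 3 (0.65), and without siSLC25A1 replicate 2 (0.47) or 3 (0.65). The siControl libraries also entered the choice of MEIS3, so its rises in siACLY and siSLC25A1 may be overstated and their adjusted p-values too small. MEIS3 was higher in siACLY than in siSLC25A1 by 1.02 (SE 0.18, adjusted p = 3.69e-05), a comparison with no siControl or siACO1 library on either side. The siACO1 libraries stood 5.3-fold above siControl (log2 fold change 2.40, SE 0.17), the rise that entered the choice of genes. Some 8.7% of the 31-base words of MEIS3 transcripts also occur elsewhere, mainly in the processed copies MEIS3P1 and MEIS3P2. MEIS3P1 averaged 3.32 ± 0.42 CPM in siControl, 3.66 ± 0.212 in siSLC25A1, 4.34 ± 0.607 in siACLY and 2.92 ± 0.48 in siACO1 (SD, n = 3). The part of either copy in the MEIS3 values was not tested.

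MEIS2 fell in siACLY. Per kilobase it stood above MEIS3 in siControl (0.759 against 0.243) and below it in siACLY (0.5 against 0.769) and siACO1 (0.86 against 1.29). Its libraries stood at 8.51, 7.71 and 8.36 CPM in siControl, at 7.6, 5.23 and 6.72 in siSLC25A1, at 5.37, 5.7 and 5.13 in siACLY and at 10.7, 8.91 and 8.22 in siACO1. All 3 siACLY libraries lay below all 3 controls, and the log2 fold change was -0.60 (SE 0.12, adjusted p = 0.000325). In siSLC25A1 the value was -0.32 (SE 0.12, adjusted p = 0.0676), which did not pass; it passed in 3 of the 13 other settings, with a replicate block (-0.33), with only the 2 groups compared (-0.32) and without siSLC25A1 replicate 1 (-0.46). The siACO1 libraries overlapped the controls, at a log2 fold change of 0.17 (SE 0.12). MEIS2 was higher in siACO1 than in siACLY by 0.78 (SE 0.13, adjusted p = 8.64e-06) and than in siSLC25A1 by 0.50 (SE 0.12, adjusted p = 0.00176). In siACLY cells the 2 MEIS genes with counts therefore moved in opposite directions.

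PBX3, the most abundant tested PBX gene per kilobase, rose in siSLC25A1. It stood at 18.4, 17.4 and 16.5 CPM in siControl, at 21.2, 25 and 23.8 in siSLC25A1, at 19.6, 19.3 and 18.6 in siACLY and at 15.2, 15.6 and 16.6 in siACO1. The siSLC25A1 libraries lay above all 9 others, and against siControl the log2 fold change was 0.42 (SE 0.07, adjusted p = 0.000113). In siACLY it was 0.14 (adjusted p = 0.16), which did not pass, and in siACO1 it was -0.14. The differences between knockdowns passed: PBX3 was lower than in siSLC25A1 both in siACLY (log2 fold change -0.28, adjusted p = 0.00367) and in siACO1 (-0.56, SE 0.08, adjusted p = 5.96e-07). It was also lower in siACO1 than in siACLY, by a log2 value of -0.28 (adjusted p = 0.00374).

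PBX4, which averaged 6.29 ± 0.642 CPM in siControl and 6.47 ± 0.964, 6.94 ± 0.288 and 6.5 ± 0.335 in siSLC25A1, siACLY and siACO1 (SD, n = 3), passed in no comparison.

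**Figure D2:**
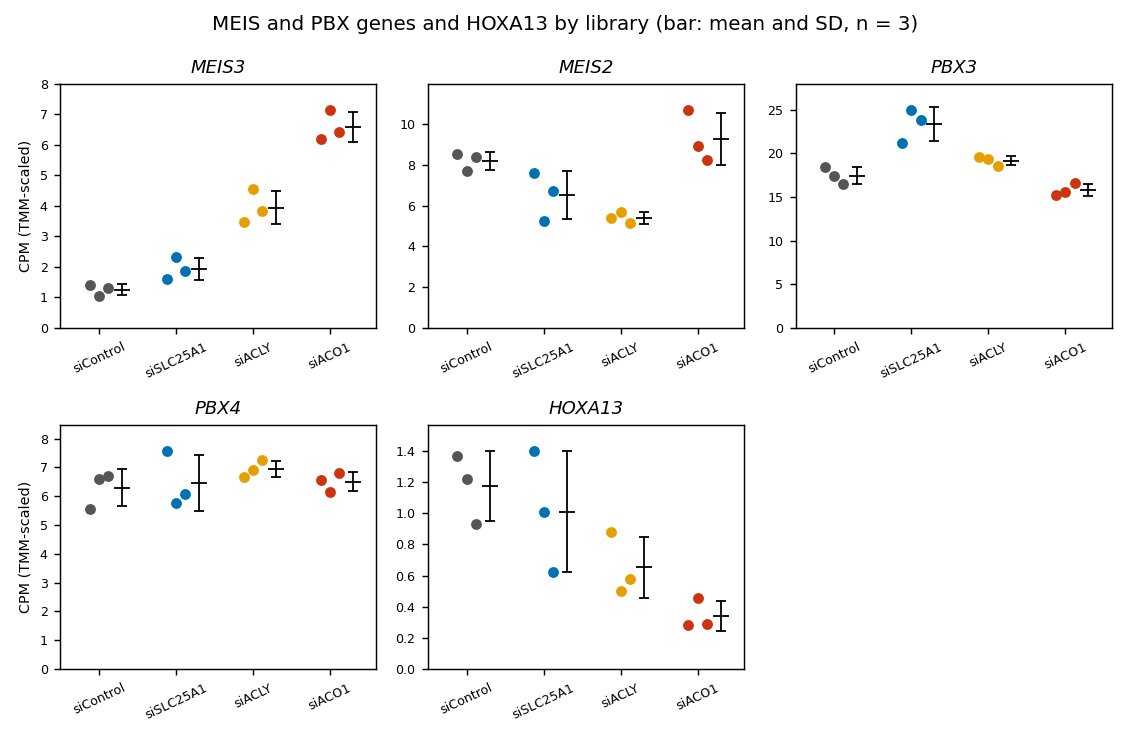
TMM-scaled CPM of MEIS3, MEIS2, PBX3, PBX4 and HOXA13 in each of the 12 libraries (points, by group), with the mean and SD of 3 libraries as a black bar and each axis starting at 0. MEIS3 separates the 4 groups from 1.05 to 7.15 CPM, PBX3 is highest in siSLC25A1, and HOXA13 is lowest in siACO1.

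The 2 most abundant HOX genes, HOXB8 and HOXB9, neighbours in the B cluster, rose modestly in siSLC25A1 and siACLY. HOXB9 stood at 105, 103 and 110 CPM in siControl, at 128, 130 and 134 in siSLC25A1, at 134, 137 and 133 in siACLY and at 143, 137 and 143 in siACO1. Every knockdown library lay above every control. The log2 fold changes were 0.31 in siSLC25A1 (SE 0.04, adjusted p = 2.66e-06) and 0.34 in siACLY (SE 0.04, adjusted p = 1.37e-07), and in siACO1 the value was 0.41 (SE 0.04). HOXB8 stood at 98.3, 89.4 and 99.1 CPM in siControl, at 111, 112 and 106 in siSLC25A1, at 119, 120 and 123 in siACLY and at 112, 110 and 121 in siACO1. Its log2 fold changes were 0.20 (SE 0.05, adjusted p = 0.00325), 0.34 (SE 0.05, adjusted p = 1.79e-06) and, in siACO1, 0.26 (SE 0.05). All 3 comparisons use the same control libraries, so they are not independent of each other.

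HOXB2, an anterior gene of the cluster, rose in siSLC25A1 and siACLY. It stood at 43.7, 41.9 and 39.5 CPM in siControl, at 49.9, 53.9 and 52.1 in siSLC25A1, at 52.4, 55.1 and 52.8 in siACLY and at 44.9, 41.9 and 47.6 in siACO1. The siACO1 libraries overlapped the controls, and the 6 libraries of the other two knockdowns lay above both. The log2 fold changes were 0.32 in siSLC25A1 (SE 0.06, adjusted p = 0.000111) and 0.35 in siACLY (SE 0.06, adjusted p = 8.39e-06), and in siACO1 the value was 0.10. HOXB2 was lower in siACO1 than in siSLC25A1 by a log2 value of -0.21 (adjusted p = 0.00275) and than in siACLY by -0.25 (adjusted p = 0.000479).

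HOXB5, from the middle of the cluster, moved the other way in siACLY. Its libraries stood at 18.8, 18.2 and 17.9 CPM in siControl, at 16.6, 17.7 and 18.4 in siSLC25A1, at 13.6, 13.9 and 12.4 in siACLY and at 21.9, 19.7 and 20.6 in siACO1. The siACLY libraries were the lowest 3 of the 12 and the siACO1 libraries the highest 3. HOXB5 fell in siACLY against siControl (log2 fold change -0.46, SE 0.08, adjusted p = 1.69e-05) and was lower there than in siSLC25A1 (-0.40, adjusted p = 0.000174). It was higher in siACO1 than in siACLY by 0.64 (adjusted p = 5.38e-08) and than in siSLC25A1 by 0.24 (adjusted p = 0.00996), the last lost without siSLC25A1 replicate 1 or siACO1 replicate 1 (lowest value over the settings tried 0.20). So within 1 cluster, siACLY cells had HOXB2, HOXB8 and HOXB9 higher and HOXB5 lower than controls.

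HOXB6 overlaps its neighbours over 32.9% of its exon bases, HOXB3 and the antisense gene HOXB-AS3 among them, so reads could be split between them. It stood at 33, 33.1 and 34 CPM in siControl, at 32.6, 34.4 and 35 in siSLC25A1, at 31.1, 29.1 and 28.1 in siACLY and at 37.9, 40.6 and 32.4 in siACO1. The siACLY libraries were the lowest 3, and HOXB6 was higher in siACO1 than in siACLY by a log2 value of 0.32 (adjusted p = 0.000278). The smaller fall in siACLY against siControl (-0.18, adjusted p = 0.0415) was lost with library totals, with at least 10 counts in every library, without any 1 of the 3 controls and without siACLY replicate 2 or 3 (values -0.23 to -0.13 over the settings tried). The difference of siACLY from siSLC25A1 (-0.20, adjusted p = 0.0229) was lost with library totals, without siSLC25A1 replicate 2 or 3 and without siACLY replicate 2 or 3 (-0.26 to -0.16). HOXB-AS3 averaged 15.6 ± 0.913 CPM in siControl, 16.3 ± 1.02 in siSLC25A1, 12.2 ± 1.5 in siACLY and 18.1 ± 6.22 in siACO1 (SD, n = 3). Its part in the HOXB6 values was not tested.

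HOXB13, the most posterior gene of the cluster and a known partner of the androgen receptor in prostate, fell in siSLC25A1. It stood at 8.54, 9.41 and 10.4 CPM in siControl, at 6.49, 7.65 and 6.88 in siSLC25A1, at 7.08, 7.53 and 8.67 in siACLY and at 9.26, 8.94 and 9.63 in siACO1. The siSLC25A1 libraries lay below all controls and the siACO1 libraries fell within their range. The log2 fold change was -0.43 in siSLC25A1 (SE 0.11, adjusted p = 0.00474). In siACLY it was -0.29 (SE 0.11, adjusted p = 0.0303), which was lost with library totals, without siControl replicate 2 or 3 and without siACLY replicate 1 or 2 (-0.38 to -0.23). HOXB13 was higher in siACO1 than in siSLC25A1 by 0.41 (adjusted p = 0.00359) and than in siACLY by 0.27 (adjusted p = 0.0446), a call lost in 8 of 13 settings, 5 of them the removal of siACLY replicate 1 or 2 or of any siACO1 replicate (0.20 to 0.35). HOXB3, next to HOXB2, differed only between siACO1 and siACLY among the 6 comparisons (0.20, adjusted p = 0.0316), and this was lost without siACLY replicate 1 or 3 and without siACO1 replicate 1 or 2 (0.14 to 0.28). HOXB4 and HOXB7 passed in no comparison.

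**Figure D3:**
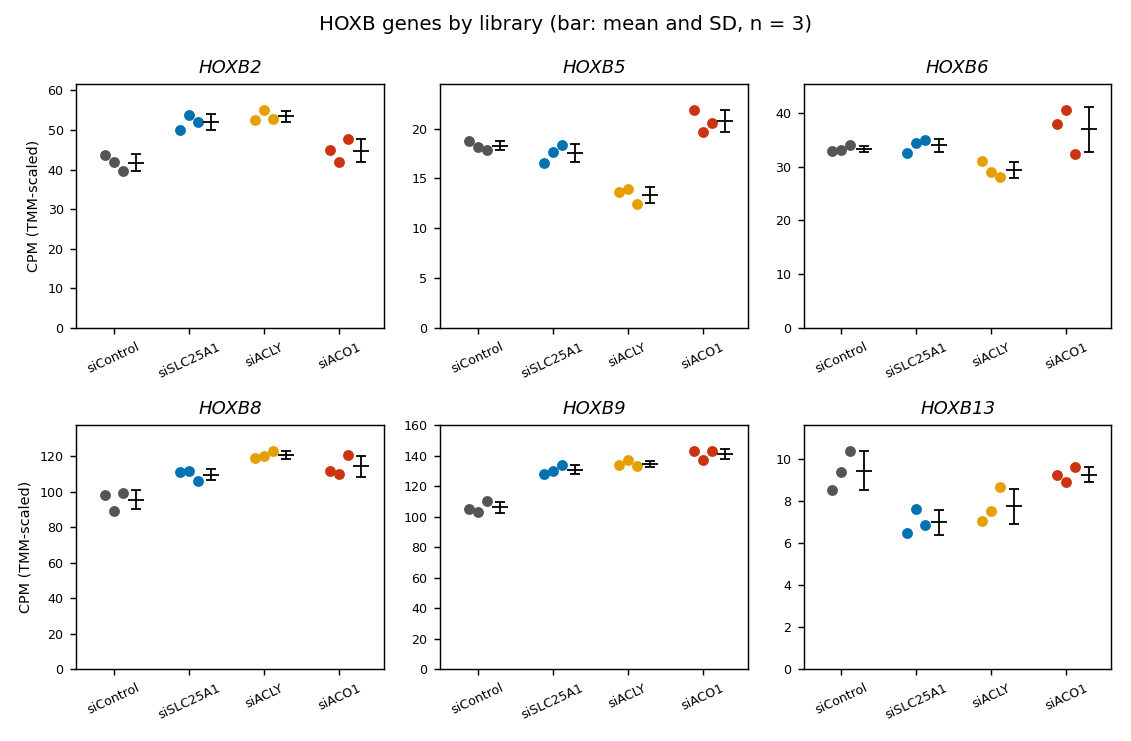
TMM-scaled CPM of HOXB2, HOXB5, HOXB6, HOXB8, HOXB9 and HOXB13 in each of the 12 libraries (points, by group), with the mean and SD of 3 libraries as a black bar and each axis starting at 0. HOXB8 and HOXB9 are above the controls in all 3 knockdowns, and HOXB5 runs from 12.4 CPM in siACLY to 21.9 in siACO1.

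HOXA13, the last gene of the A cluster, which patterns distal limb and hindgut, was lowest in siACO1. It stood at 1.37, 1.22 and 0.929 CPM in siControl, at 1.4, 1.01 and 0.622 in siSLC25A1, at 0.877, 0.504 and 0.578 in siACLY and at 0.282, 0.455 and 0.289 in siACO1, on only 7, 14 and 9 counts in the last group. The siACO1 libraries lay below all 9 others, at 29.4% of siControl (log2 fold change -1.76, SE 0.36). Against siSLC25A1 they were lower by a log2 value of -1.55 (SE 0.38, adjusted p = 0.00128). The difference from siACLY (-0.96, adjusted p = 0.0461) was lost in 8 of 12 settings, among them the removal of siACLY replicate 1 or 3 or of siACO1 replicate 1 or 3 (-1.23 to -0.64). In siACLY against siControl the value was -0.80 (SE 0.32, adjusted p = 0.0485), lost in 7 of 12 settings, among them the removal of siControl replicate 1 or 2 or of siACLY replicate 2 or 3 (-1.13 to -0.66). HOTTIP, the noncoding RNA next to HOXA13, had 3, 3 and 7 counts in siControl, 3, 5 and 2 in siSLC25A1, 6, 4 and 5 in siACLY and 0 in all 3 siACO1 libraries, which were too few to test.

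HOXA3, which acts in pharyngeal arch development, fell in siACLY and siSLC25A1. It stood at 8.32, 7.69 and 9.04 CPM in siControl, at 6.49, 6.72 and 5.64 in siSLC25A1, at 6.11, 5.82 and 4.28 in siACLY and at 6.28, 6.5 and 7.03 in siACO1. All 9 knockdown libraries lay below all 3 controls. The log2 fold changes were -0.61 in siACLY (SE 0.12, adjusted p = 0.000236) and -0.40 in siSLC25A1 (SE 0.12, adjusted p = 0.0192). The latter was lost without siControl replicate 1 (-0.41) or 3 (-0.35) or siSLC25A1 replicate 3 (-0.34). In siACO1 the value was -0.33 (SE 0.12), and -0.39 to -0.28 over the settings tried. HOXA3 thus lay below its controls in the same cells in which HOXB8 and HOXB9 lay above theirs.

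HOXA11 shares 31.1% of its exon bases with HOXA11-AS and is uncertain for that reason. Its libraries stood at 4.13, 3.5 and 4.54 CPM in siControl, 4.99, 4.55 and 4.52 in siSLC25A1, 5.12, 5.04 and 5.2 in siACLY and 3.34, 3.38 and 3.79 in siACO1. It was lower in siACO1 than in siACLY by a log2 value of -0.55 (adjusted p = 0.00157) and than in siSLC25A1 by -0.42 (adjusted p = 0.0162), the latter lost without siSLC25A1 replicate 1 or siACO1 replicate 1 or 2 (-0.48 to -0.37). Its rise in siACLY against siControl (0.34, adjusted p = 0.0384) was lost in 7 of 13 settings, among them the removal of siControl replicate 1 or 2 or of any siACLY replicate (0.24 to 0.42). HOXA11-AS averaged 2.27 ± 0.176, 2.38 ± 0.171, 2.61 ± 0.423 and 2.87 ± 0.467 CPM in siControl, siSLC25A1, siACLY and siACO1 (SD, n = 3). Its group ranges overlapped and it passed in no comparison.

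HOXA2, a hindbrain-patterning gene near the other end of the A cluster, had few counts. It was higher in siACO1, at 0.765, 1.53 and 0.995 CPM, than in siACLY, at 0.584, 0.465 and 0.578 (log2 value 1.01, adjusted p = 0.0175), which was lost without siACLY replicate 2 or siACO1 replicate 2 (0.69 to 1.20). Against siControl, HOXA2 passed in neither siSLC25A1 nor siACLY.

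In the C cluster HOXC6, a thoracic-level gene, was highest in siACO1. It stood at 2.04, 2.75 and 1.82 CPM in siControl, 1.74, 2.13 and 2.32 in siSLC25A1, 2.2, 1.94 and 2.51 in siACLY and 2.62, 4.52 and 3.72 in siACO1, where 1 library overlapped the controls. Against siControl the siACO1 value was 0.72 (SE 0.20), and 0.52 without siACO1 replicate 2. HOXC6 was higher in siACO1 than in siSLC25A1 by a log2 value of 0.83 (adjusted p = 0.00158) and than in siACLY by 0.72 (adjusted p = 0.00389), the last lost without siACO1 replicate 2 (0.53). HOXC8, the most abundant HOXC gene, averaged 9.93 ± 0.334 CPM in siControl, 10.1 ± 0.328 in siSLC25A1, 9.33 ± 1.03 in siACLY and 9.36 ± 0.73 in siACO1 (SD, n = 3) and, like HOXC4, passed in no comparison.

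Counted over the 22 tested genes, 5 rose (MEIS3, PBX3, HOXB2, HOXB8 and HOXB9) and 2 fell (HOXA3 and HOXB13) in siSLC25A1 against siControl, where 10.3% of all tested genes rose and 9.27% fell. In siACLY 5 rose (MEIS3, HOXA11, HOXB2, HOXB8 and HOXB9) and 6 fell (MEIS2, HOXA3, HOXA13, HOXB5, HOXB6 and HOXB13), where 18.4% of all tested genes rose and 18.3% fell. With library totals in place of TMM scaling the siACLY split was 5 to 3. The median log2 fold change of the 22 genes was 0.02 in siSLC25A1 and -0.10 in siACLY, beside -0.004 and 0.008 over all tested genes. Without MEIS3, whose choice used the siControl libraries, 4 of 21 genes rose in siSLC25A1 and 4 of 21 in siACLY. In siACO1, where 17.8% of all tested genes were past the threshold upward and 19.3% downward, 4 of the 22 were higher (MEIS3, HOXC6, HOXB8 and HOXB9) and 2 lower (HOXA3 and HOXA13), with a median of 0.12 beside 0.006 over all genes. With library totals that split was 8 to 1, and without siACO1 replicate 3 it was 5 to 2. This last comparison entered the choice of genes, and nothing is read from its counts.

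**Figure D4:**
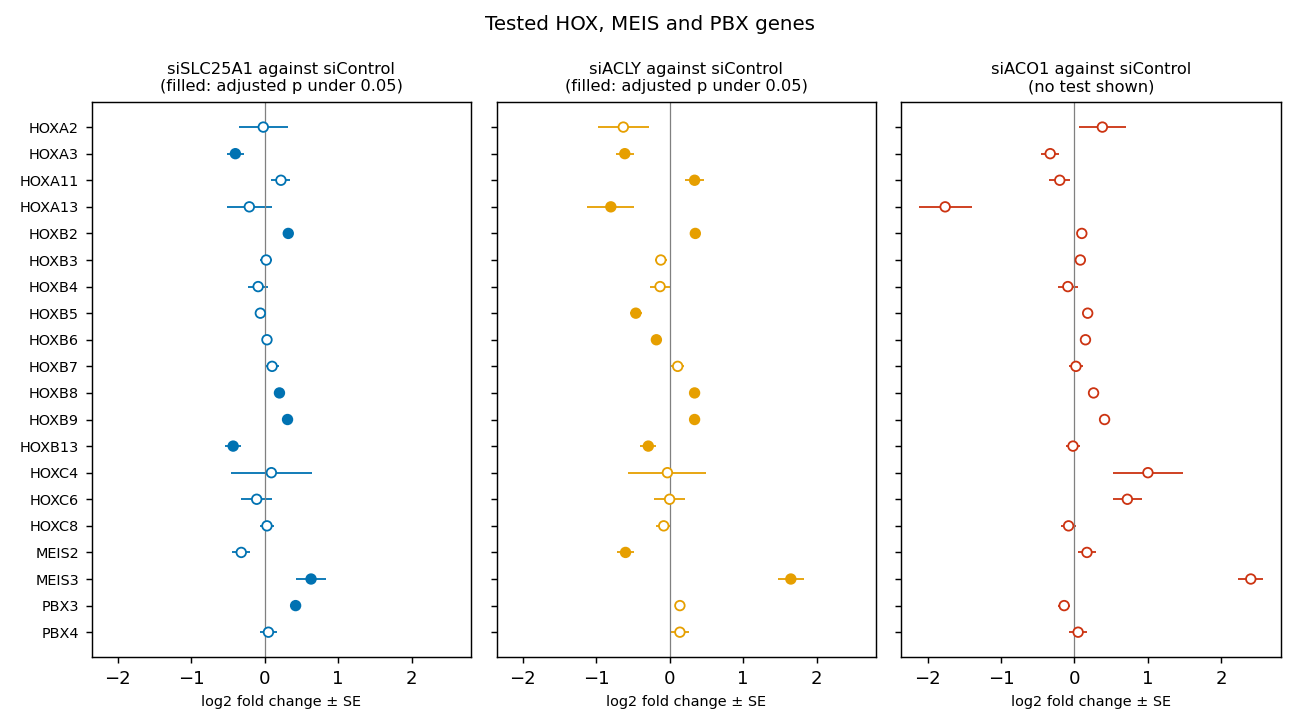
Log2 fold change with its standard error for 20 of the 22 tested genes (rows) in each knockdown against siControl (panels); filled circles passed an adjusted p of 0.05, and the siACO1 panel shows no test. MEIS3 lies to the right in all 3 panels, at 0.63, 1.65 and 2.40, and HOXA3 to the left in all 3.

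Between knockdowns, 2 of the 22 genes were higher in siACLY than in siSLC25A1 (MEIS3 and HOXB8) and 3 lower (PBX3, HOXB5 and HOXB6), where 16.3% of all tested genes were higher and 17.5% lower. The HOXB8 difference was small (log2 value 0.14, adjusted p = 0.0249) and was lost without siSLC25A1 replicate 3 or any siACLY replicate (0.11 to 0.18). MEIS3 was left out of the 2 comparisons of siACO1 with the other knockdowns, which share the siACO1 libraries and so are not independent. Among the other 21 genes, 7 were higher in siACO1 than in siSLC25A1 (among them MEIS2, HOXB5, HOXB9, HOXB13 and HOXC6) and 4 lower (PBX3, HOXA11, HOXA13 and HOXB2), where 20.3% of all tested genes were higher and 21.8% lower. The HOXB9 difference of 0.10 (adjusted p = 0.0427) was lost in 8 of 13 settings, among them the removal of siSLC25A1 replicate 1 or 2 or of siACO1 replicate 1 or 3 (0.09 to 0.15). Against siACLY, 9 of the 21 were higher in siACO1 (among them MEIS2, HOXA2, HOXB3, HOXB5, HOXB6, HOXB13 and HOXC6) and 4 lower (PBX3, HOXA11, HOXA13 and HOXB2), where 20.7% of all tested genes were higher and 21.4% lower. The median of the 21 genes was 0.20 in that comparison, beside 0.004 over all tested genes. For MEIS3 the siACO1 values stood above siSLC25A1 by 1.78 and above siACLY by 0.76, with no test.

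The other TALE genes and HOX partners were read from a list of 12, of which 7 were tested. In siSLC25A1, 1 rose (TGIF1) and 4 fell (PKNOX2, IRX5, TGIF2 and PBXIP1). In siACLY 2 rose (TGIF1 and PKNOX1) and 3 fell (TGIF2, IRX5 and IRX3), and in siACO1 3 were higher (PKNOX2, PBXIP1 and TGIF1) and 1 lower (IRX3, -0.20). Over all tested genes the shares were 10.3% higher and 9.27% lower in siSLC25A1, 18.4% and 18.3% in siACLY, and 17.8% and 19.3% in siACO1. The fall of PBXIP1 in siSLC25A1 (-0.23) did not hold when siControl replicate 1, siSLC25A1 replicate 1 or siSLC25A1 replicate 3 was left out (-0.27 to -0.20). PKNOX2, a TALE gene close to MEIS, went from 1.63 CPM in siControl to 0.525 in siSLC25A1 (log2 fold change -1.65, SE 0.28, adjusted p = 6.12e-05) and to 3.65 in siACO1 (1.16, SE 0.20), and stood at 1.66 in siACLY. PBXIP1, which encodes a protein that binds PBX and blocks its DNA binding, was at 21.2 CPM in siControl and 41.4 in siACO1 (log2 fold change 0.96, SE 0.06). The repressor gene TGIF1 rose in siSLC25A1 by 0.45 (adjusted p = 1.31e-07) and in siACLY by 0.39 (adjusted p = 6.37e-07), while its paralogue TGIF2 fell in siACLY (-0.56, adjusted p = 3.18e-08). IRX5 fell in siSLC25A1 (-0.33, adjusted p = 0.00893) and in siACLY (-0.45, adjusted p = 0.000195).

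Among 19 noncoding RNAs of the HOX clusters 6 were tested, and none passed in siSLC25A1 or siACLY. HOXA-AS2 was the 1 that was past the threshold in siACO1, at 4.54 CPM against 3.19 (log2 fold change 0.50, SE 0.16, and 0.43 to 0.56 over the settings tried). Of 8 ParaHox and EVX genes 2 were tested, CDX2 and PDX1, the latter a master gene of pancreas development. PDX1, named here after its value was seen, stood at 0.266 CPM in siControl and 0.578 in siACLY (1.11, SE 0.44, adjusted p = 0.0461), which was lost in 7 of 12 settings, among them the removal of siControl replicate 1 or 3 or of siACLY replicate 1 or 2 (0.91 to 1.5).

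Polycomb group complexes keep HOX clusters silent. Of 19 tested genes 4 rose and 11 fell in siACLY, 1 rose and 5 fell in siSLC25A1, and 3 were higher and 6 lower in siACO1, beside 18.3%, 9.27% and 19.3% of all tested genes lower in siACLY, siSLC25A1 and siACO1, and 18.4%, 10.3% and 17.8% higher. The median log2 fold change of the list was -0.17 in siACLY and -0.01 in siSLC25A1, beside 0.008 and -0.004 over all tested genes. CBX2 fell from 48.7 to 27.2 CPM in siACLY (log2 fold change -0.84, adjusted p = 8.76e-13) and to 36.5 in siSLC25A1 (-0.42, adjusted p = 1.32e-06), and BMI1 from 11 to 6.28 CPM in siACLY (-0.80, adjusted p = 1.07e-07). PHC1, of whose 31-base words 44.2% also occur elsewhere (mainly in PHC1P1), and BMI1, overlapped over 23.3% of its exon bases by COMMD3-BMI1, are uncertain. PHC1 rose in siACLY from 4.02 to 9.54 CPM (1.25, adjusted p = 2.07e-09) and stood at 8.06 in siACO1. In siSLC25A1 PHC2 rose (0.38, adjusted p = 1.62e-07) and JARID2 fell (-0.37, adjusted p = 0.004), while in siACO1 JARID2 stood above siControl (0.56, SE 0.08). PCGF5 was at 8.62 CPM in siControl and 2.09 in siACO1 (log2 fold change -2.05, SE 0.14). These shifts were not limited to 1 knockdown: in siACLY JARID2 also rose (0.40) and PCGF5 also fell (-0.74). In siACO1 CBX2 (-0.32) and BMI1 (-0.45) also stood below siControl. Of 13 tested trithorax and MLL complex genes, which maintain active HOX genes, 0 rose and 1 fell in siSLC25A1, 2 rose and 4 fell in siACLY, and 4 were higher and 3 lower in siACO1, with 10.3% and 9.27%, 18.4% and 18.3%, and 17.8% and 19.3% of all tested genes higher and lower. DPY30, overlapped over 50.5% of its exon bases by MEMO1, is uncertain. KMT2A, which encodes the MLL methyltransferase, was at 91.3 CPM in siControl and 129 in siACO1 (0.49, SE 0.12), DPY30 at 59.2 and 75.3 (0.35, SE 0.06), and KDM6B at 21.8 and 26.2 (0.26, SE 0.08, and 0.20 to 0.33 over the settings tried). In siACLY AFF4 rose (0.21, adjusted p = 0.00336), and DPY30 (-0.27, adjusted p = 0.000426) and MEN1 (-0.19, adjusted p = 0.00144) fell. MEN1 was also the gene that fell in siSLC25A1 (-0.15, adjusted p = 0.0179), a call that needed siControl replicates 1 and 3 and siSLC25A1 replicate 2 (-0.19 to -0.13 over the settings tried).

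Retinoic acid, made from retinol by RDH and ALDH1A enzymes, switches on HOX genes through RAR receptors and is broken down by CYP26 enzymes. Of the 10 tested genes of this pathway 6 fell and 1 rose in siSLC25A1 (ALDH1A3 the riser), 6 fell and 1 rose in siACLY (ALDH1A1), and 4 were lower and 1 higher in siACO1 (ALDH1A1). Over all tested genes 9.27% fell and 10.3% rose in siSLC25A1, 18.3% and 18.4% in siACLY, and 19.3% and 17.8% were lower and higher in siACO1. The median log2 fold change of the list was -0.25 in siSLC25A1 and -0.55 in siACLY, beside -0.004 and 0.008 over all tested genes. The retinol dehydrogenase gene RDH10 fell from 6.55 to 3.31 CPM in siSLC25A1 (-1, adjusted p = 7.34e-06) and to 4.22 in siACLY (-0.64, adjusted p = 0.000451), and the receptor gene RARG from 35.7 to 23 (-0.63, adjusted p = 1.66e-08) and to 19.5 (-0.87, adjusted p = 1.06e-11). CYP26B1, on the breakdown side, also fell, from 1.51 to 0.432 CPM in siSLC25A1 (-1.78, adjusted p = 0.000101) and to 0.674 in siACLY (-1.13, adjusted p = 0.00198). ALDH1A3, uncertain because other genes overlap 28.6% of its exon bases, was at 118 CPM in siControl and 60.3 in siACO1 (-0.97, SE 0.05), RARA at 20.2 and 15.3 (-0.40, SE 0.08), and RDH10 at 6.55 and 5.14 (-0.36, SE 0.13, and -0.48 to -0.23 over the settings tried). Genes of synthesis, reception and breakdown were thus among those that fell in siSLC25A1 and siACLY. Of the HOX genes, HOXB2, HOXB8 and HOXB9 rose and HOXA3 and HOXB13 fell in both knockdowns. The calls of HOXA3 in siSLC25A1 and of HOXB13 in siACLY were lost in some settings, as given above. A link between this pathway and the HOX genes was not tested.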

How the data were processed

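RNA of MiaPaCa-2 cells was sequenced from 12 polyA libraries, 3 for each of siControl, siSLC25A1, siACLY and siACO1. The authors deposited a table of raw gene counts for 70116 Ensembl identifiers. The submitters' processing notes list CASAVA, FastQC, Trim Galore, STAR 2.7.0e and DESeq2 and the builds GRCh38 and GRCm39, with no role for each; the counting tool, annotation and use of strand are not given in the sources used here. Without known strand, reads of a gene and its antisense partner cannot be told apart. Symbols were matched for 62700 identifiers (89.4%).

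Counts were fitted with edgeR 4.0.16 (TMM, filterByExpr with its minimum count of 10, robust quasi-likelihood) over all 12 libraries without covariates, and p-values were adjusted by Benjamini-Hochberg over the 16197 tested genes and called at 0.05. The biological coefficient of variation was 4.89%, and the residual degrees of freedom were 8. A standard error is the log2 fold change over the root of F. DESeq2 1.42.0 was an alternative. Others were median-of-ratios factors, library totals, no filter, at least 10 counts in every library, a replicate block, only the 2 groups compared, leaving out each library, and longest-transcript length. The steps were tested on simulated data. Exon lengths, positions and overlaps came from GENCODE 29 (GRCh38). A gene is uncertain where others overlap at least 20% of its exon bases or share at least 20% of its 31-base words.

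Genes and lists were chosen with earlier results of these data known. MEIS and PBX genes, HOX genes called in any comparison, and from each list up to 3 called genes with the largest fold change at 1 CPM or more are the ones named; values of 2 genes are not reported here, though they are in the counts. The 3 comparisons with siControl share its libraries. Library totals ran from 24159424 to 43792811 counts, and the standard errors give the precision this allows.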

Additional observations from a re-analysis of the deposited data

How the results depend on the processing

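There were 19 settings, 12 of which left out 1 library, and each call was judged in 12 or 13 of the 19. Leaving aside siACO1 against siControl, which entered the choice of genes, 28 of 47 calls of a HOX, MEIS or PBX gene held in every setting in which they were judged. Over 606 values, 516 kept direction and side of the threshold, 90 kept direction but lost the threshold and 0 turned direction. For the genes of the lists, settings added after the data were seen, 40 of 53 calls held throughout and 0 turned direction. Leaving out libraries gave 5 to 9 called genes in siSLC25A1 against siControl (7 with all), 7 to 9 in siACLY against siControl (11), 5 to 7 in siACO1 against siControl (6), 3 to 5 in siACLY against siSLC25A1 (5), 7 to 11 in siACO1 against siSLC25A1 (11) and 9 to 11 in siACO1 against siACLY (13). The lowest counts came without siControl replicate 2 or siACLY replicate 2 for siACLY against siControl, without siSLC25A1 replicate 3 or siACLY replicate 2 or 3 for siACLY against siSLC25A1, and without siSLC25A1 replicate 1 or siACO1 replicate 1 for siACO1 against siSLC25A1; fewer samples entered those fits. Without siACO1 replicate 3 the counts were 7, 11 and 11 for siACO1 against siControl, siSLC25A1 and siACLY. Replicate numbers did not pair the samples: deviations of libraries with the same number correlated between -0.034 and 0.067 (18 pairs, 0 over 0.1). The mean correlation with libraries of the other groups was highest for the library's own number in 6 of 12 libraries. With the replicate number as a block the counts were 8, 11 and 6 for siSLC25A1, siACLY and siACO1 against siControl, 5 for siACLY against siSLC25A1, and 11 each for siACO1 against siSLC25A1 and siACLY; the calls it ended included HOXA13 (-0.90) in siACO1 against siACLY, and MEIS2 (-0.33) passed with it in siSLC25A1 against siControl. By longest transcript in place of exon union, 15 in place of 14 genes reached 1 CPM per kb in siControl. Genes near 1 CPM (HOXA2, HOXA13, and HOXC4 below it) rest on low counts, which limits what differences can be seen.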
